A study of Mus musculus with 9 samples.

Results

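Transcripts of 7 chemokine receptor genes, *Ccr1*, *Ccr2*, *Ccr7*, *Cx3cr1*, *Cxcr2*, *Cxcr4*, and *Ccrl2*, were followed in myeloid cells sorted from dystrophic mouse muscle. They were chosen by gene symbol from 50559 genes listed in the count files, and all 7 were among the 16618 genes with enough counts to test. The cells came from quadriceps of *mdx* mice, which lack dystrophin and model Duchenne muscular dystrophy, at 4.5 weeks of age. The mice drank vehicle, spironolactone (a mineralocorticoid receptor antagonist), or prednisolone (a glucocorticoid) for 7 days. Each library pooled the sorted CD45+CD11b+ cells of 3 mice, and there were 3 libraries per group and 9 in all. All groups carried the *mdx* mutation and both sexes were used in each, so that neither healthy muscle nor single animals can be read from these data.

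Chemokine receptors are G protein–coupled receptors of the cell surface that steer leukocytes along gradients of secreted chemokines. In injured muscle, CCR2 and its ligand CCL2 are known for recruiting blood monocytes, CXCR2 for recruiting neutrophils, CX3CR1 for marking monocytes and macrophages that stay in vessels and tissue, and CCR7 for guiding mature dendritic cells to lymph nodes. CXCR4 binds CXCL12 and holds leukocytes in the bone marrow, and CCR1 responds to CCL3, CCL5, and related chemokines. CCRL2 is an atypical member that binds chemerin and presents it to the signaling receptor CMKLR1 without G protein signaling of its own.

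The sort was checked first. The 7 genes fixed to mark the sorted cells, *Ptprc* (CD45) and *Itgam* (CD11b) among them, summed to between 16552 and 20065 CPM (counts scaled to library size) in the 9 libraries, and none was absent. *Lyz2* alone gave 8204 to 12230 CPM of this sum. *Itgam* itself had 984, 1170, and 978 CPM with spironolactone and 1453, 1281, and 1486 CPM with prednisolone, and was called lower with spironolactone than with prednisolone, by a log2 difference of −0.43 ± 0.11 (adjusted *P* = 0.0353). That call was lost without spironolactone replicate 1 or 3 or any 1 of the prednisolone libraries (adjusted *P* of 0.0631 to 0.146), and *Itgam* was not called against vehicle with either drug. Counts on genes totaled 31469815 to 32943512 per library, so that 1 CPM was near 32.1 counts. Markers of other cells were also present. Summed fibro-adipogenic markers were 957 to 1173 CPM with vehicle, 1107 to 1489 with spironolactone, and 1174 to 1185 with prednisolone, and skeletal muscle markers were 194 to 304, 374 to 633, and 298 to 450.1 CPM. All 8 fibro-adipogenic and all 7 tested muscle markers were above 0 in log2 difference with spironolactone (medians 0.56 and 0.95). So were all 8 endothelial and all 6 erythroid markers (medians 1.15 and 1.27), but none of these was called. With prednisolone against vehicle, 6 of 7 tested muscle markers were above 0 (median 0.49), and *Myh1* was called higher. In that comparison 1% of all genes were called higher. Of the 8 fibro-adipogenic and 8 endothelial markers, 7 and 6 were above 0 (medians 0.085 and 0.080). All 6 erythroid markers (median −0.77) and 8 of 10 tested lymphocyte markers (median −0.70) were below 0. No marker of these lists other than *Myh1* was called with prednisolone. Summed endothelial markers were 54.4 to 93.8 CPM with vehicle, 123 to 194 with spironolactone, and 70.1 to 97.3 with prednisolone, and erythroid markers were 70.3 to 135, 187 to 306, and 37.1 to 79.7 CPM. Between the drugs, 2.38% of all genes tested were called higher with spironolactone. Among the markers these were 4 of 8 endothelial, 4 of 6 erythroid, and 3 of 10 tested lymphocyte genes. The 3 lymphocyte genes, *Cd79a*, *Ncr1*, and *Nkg7*, were near the floor, at no more than 1.615, 2.247, and 4.465 CPM in any library. The part of these markers and of *Itgam* in the receptor levels was not tested. In bulk RNA of this kind, fewer cells of a type and less RNA per cell cannot be told apart.

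Sequence is shown for the 2 receptor genes that passed the test with prednisolone, since the drug acts through a DNA-binding receptor. The 250 bases before the outermost annotated gene start were read from GRCm39 (mm39, the build of the count files), on the strand of the gene and 5′ to 3′. They lie at chr9:110886592-110886841 for *Ccrl2* and at chr1:128520045-128520294 for *Cxcr4*, both genes on the minus strand. The canonical *Ccrl2* transcript starts inside the gene, at chr9:110886354, so that the window leaves out the bases just before that start. Canonical starts of *Ccr2* and *Cx3cr1* also lie inside the gene, and that of *Cxcr4* is the outermost start. Capitals mark matches to the motifs searched on both strands. These were the full glucocorticoid response element (the half-site AGAACA and its inverted repeat, 3 bases apart), the half-site alone, the AP-1 site TGANTCA, the cAMP response element TGACGTCA, and the NF-κB site.
Ccrl2: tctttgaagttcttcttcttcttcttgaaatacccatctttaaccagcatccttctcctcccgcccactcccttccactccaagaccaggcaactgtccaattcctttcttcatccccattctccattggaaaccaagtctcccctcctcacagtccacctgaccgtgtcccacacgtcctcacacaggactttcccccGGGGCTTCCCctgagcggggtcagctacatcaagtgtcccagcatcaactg
Cxcr4: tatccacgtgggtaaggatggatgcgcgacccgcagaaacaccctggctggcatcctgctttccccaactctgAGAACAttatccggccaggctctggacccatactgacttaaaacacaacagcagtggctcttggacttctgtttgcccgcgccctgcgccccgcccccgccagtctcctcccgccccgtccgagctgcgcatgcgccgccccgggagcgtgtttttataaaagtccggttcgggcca
The *Ccrl2* window held 1 match to the NF-κB site, GGGGCTTCCC, which starts 51 bases before the gene start and reads as a match on either strand. The *Cxcr4* window held 1 half-site, 177 bases before the start, and overlaps an annotated exon of *Gm57160*. Among 13037 windows of the same length, 7.72% held an NF-κB site, 13.2% the half-site, 5.04% the AP-1 site, 1.42% the cAMP response element, and 0 the full glucocorticoid response element. The same half-site also occurred before *Ccr2*, *Cx3cr1*, and *Cxcr2*, for which no comparison passed the test. An NF-κB match also occurred before *Ccr1* and an AP-1 match before *Ccr7*, neither of them called against vehicle. A match says only that these letters stand in the window.

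The first question was how prednisolone and spironolactone each changed the receptors in comparison with vehicle. With prednisolone, 2 of the 7 transcripts fell (*Ccrl2* and *Cxcr4*), none rose, and 5 did not pass the test. Over all genes tested, 1.76% were called in this comparison and 0.758% were called lower. With spironolactone, edgeR called none of the 7, limma-voom none, and DESeq2 1, against 0.0181% of all genes tested by edgeR, which was 3 genes, and 1.6% by DESeq2. At an unadjusted *P* under 0.05 edgeR gave 2, again *Ccrl2* and *Cxcr4*. Those unadjusted calls covered 9.29% of all genes with spironolactone and 14.2% with prednisolone, where 2 of the 7 had them. The drug groups were compared with the same vehicle libraries, so that agreement between the comparisons carries no independent weight. The median log2 fold change of the 7 was −0.04 with prednisolone and −0.22 with spironolactone, beside −0.01 and 9.0e-05 over all genes tested.

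**Figure D1:**
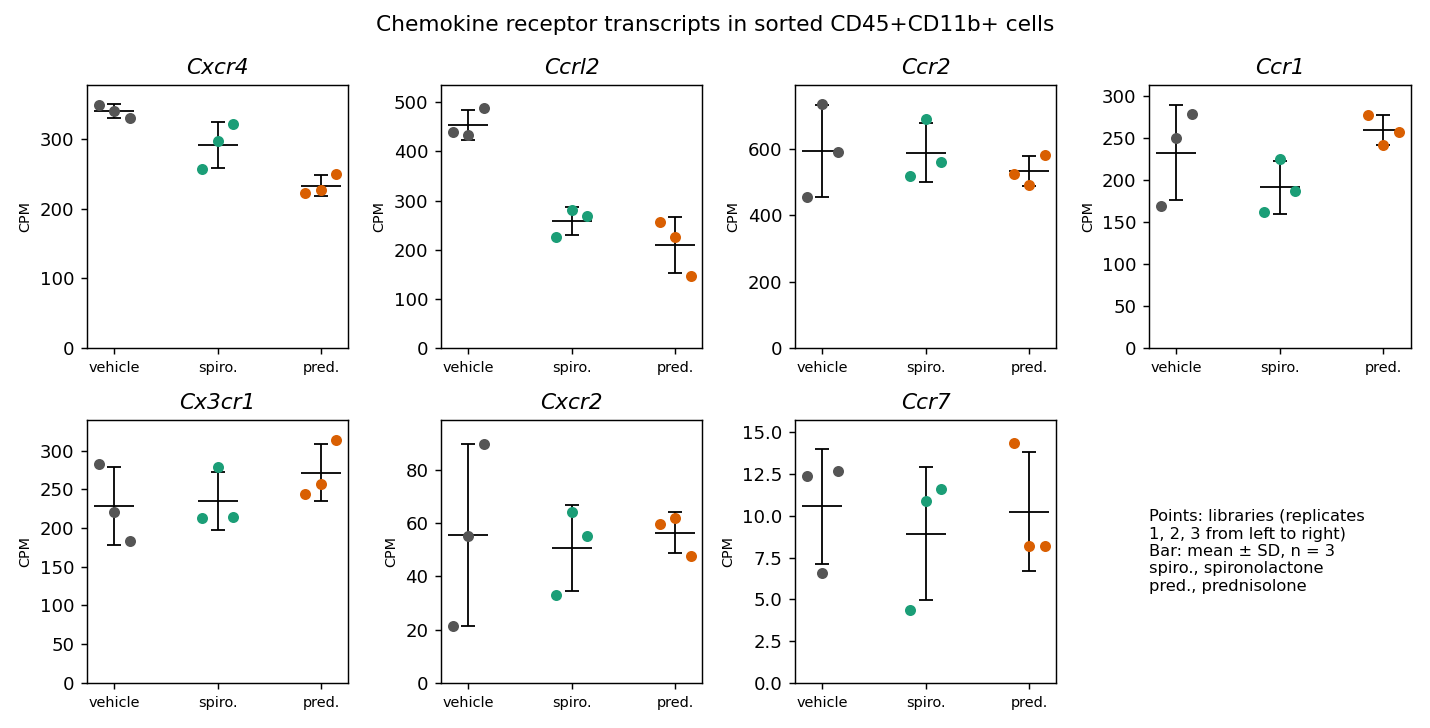
Level of each receptor transcript in CPM (linear axes from 0) in the 3 libraries of each group, with points for libraries and bars for the mean ± SD. All spironolactone and prednisolone libraries sit below all vehicle libraries for *Ccrl2* and *Cxcr4*, and the groups overlap with vehicle for the other 5 genes.

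*Ccrl2* (ENSMUSG00000043953, GRCm39 chr9:110883554-110886591, minus strand) had the largest change of the 7 receptors. Vehicle libraries had 439, 432, and 488 CPM, spironolactone libraries had 227, 281, and 269 CPM, and prednisolone libraries had 257, 226, and 146 CPM. Every library of either drug was below the lowest vehicle library, which among all genes tested was so for 9.27% with prednisolone and 6.5% with spironolactone. The group means were 453 ± 30.3, 259 ± 28.4, and 210.0 ± 57.4 CPM (SD, *n* = 3 each). With prednisolone, *Ccrl2* fell by 53.6%, a log2 fold change of −1.11 ± 0.17 (SE; 95% CI −1.48 to −0.73; adjusted *P* = 0.00888, edgeR). With spironolactone the difference was −0.81 ± 0.17 (95% CI −1.18 to −0.43; adjusted *P* = 0.129, edgeR), which did not pass the threshold. DESeq2 on all 9 libraries gave −0.82 and an adjusted *P* of 0.000297 for the same difference, so that this call turned on the method.

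*Cxcr4* (ENSMUSG00000045382, GRCm39 chr1:128515936-128520044, minus strand), the CXCL12 receptor, also fell with prednisolone. Its levels were 349, 340.1, and 330.1 CPM with vehicle, 256, 297, and 321 CPM with spironolactone, and 222, 227, and 249.8 CPM with prednisolone. The 3 groups did not overlap, since the highest prednisolone library was below the lowest spironolactone library and the highest spironolactone library was below the lowest vehicle library, an order that 0.217% of all genes tested had. Group means were 339.8 ± 9.61, 291 ± 32.6, and 233 ± 14.8 CPM. With prednisolone *Cxcr4* fell by 31.4%, a log2 fold change of −0.54 ± 0.10 (95% CI −0.75 to −0.33; adjusted *P* = 0.013, edgeR). Leaving out prednisolone replicate 1 or 2 kept the size, at −0.51 and −0.53, but gave adjusted *P* values of 0.0639 and 0.101. With spironolactone the difference was −0.22 ± 0.10 (adjusted *P* = 0.508).

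*Ccr2* and *Ccr1*, the main receptors of inflammatory monocytes for CC chemokines, passed neither comparison with vehicle. *Ccr2* (GRCm39 chr9:123901982-123913594, plus strand) had 456, 734, and 591 CPM with vehicle, 518, 689, and 559 CPM with spironolactone, and 525, 491, and 580.4 CPM with prednisolone. The vehicle libraries spanned the whole range of the treated ones. The log2 difference was −0.16 ± 0.16 with prednisolone (95% CI −0.50 to 0.18; adjusted *P* = 0.721) and −0.01 ± 0.16 with spironolactone (95% CI −0.35 to 0.33; adjusted *P* = 0.991). *Ccr1* (GRCm39 chr9:123762161-123768734, minus strand) had 169, 250.1, and 279 CPM with vehicle, 163, 225, and 187 CPM with spironolactone, and 278, 243, and 258 CPM with prednisolone. Vehicle replicate 1 was low among the vehicle libraries and lay beside the spironolactone libraries. The log2 difference of *Ccr1* was 0.16 ± 0.17 with prednisolone and −0.28 ± 0.17 with spironolactone, at adjusted *P* values of 0.742 and 0.659.

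*Cx3cr1* (GRCm39 chr9:119877749-119898945, minus strand), the fractalkine receptor, had 282, 220.2, and 183 CPM with vehicle, 212, 279, and 214 CPM with spironolactone, and 244, 257, and 314 CPM with prednisolone. The groups overlapped, and the log2 difference was 0.25 ± 0.16 with prednisolone (95% CI −0.10 to 0.60; adjusted *P* = 0.545) and 0.04 ± 0.16 with spironolactone (adjusted *P* = 0.97). The gene shares exon bases with *Gm33858* on the opposite strand, which had 17 to 56 counts per library against 5875 to 10566 for *Cx3cr1*.

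*Cxcr2* (GRCm39 chr1:74193150-74200405, plus strand), the receptor of neutrophils for CXCL1 and CXCL2, varied most between vehicle libraries. It had 21.5, 55.4, and 89.9 CPM with vehicle, 32.9, 64.3, and 55.3 CPM with spironolactone, and 59.7, 62.0, and 47.7 CPM with prednisolone. The lowest and the highest value of all 9 libraries were both vehicle libraries. The log2 difference was 0.02 ± 0.51 with prednisolone (95% CI −1.20 to 1.25; adjusted *P* = 0.99) and −0.13 ± 0.51 with spironolactone (95% CI −1.35 to 1.10; adjusted *P* = 0.97), so that a change of 2-fold in either direction lay within both intervals.

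*Ccr7* (GRCm39 chr11:99035022-99045911, minus strand), the receptor of migrating dendritic cells, was the least abundant of the 7, with 137 to 473 counts per library. Its levels were 12.4, 6.58, and 12.7 CPM with vehicle, 4.33, 10.9, and 11.6 CPM with spironolactone, and 14.4, 8.19, and 8.20 CPM with prednisolone. Each group held 1 library well apart from its other two, low with vehicle and spironolactone and high with prednisolone. The log2 difference was −0.04 ± 0.40 with prednisolone (95% CI −0.96 to 0.87; adjusted *P* = 0.976) and −0.24 ± 0.40 with spironolactone (95% CI −1.16 to 0.68; adjusted *P* = 0.913). *Ccr7* shares exon bases with *Gm57398* on the opposite strand, and whether the counting used strand is not given in the sources used here.

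**Figure D2:**
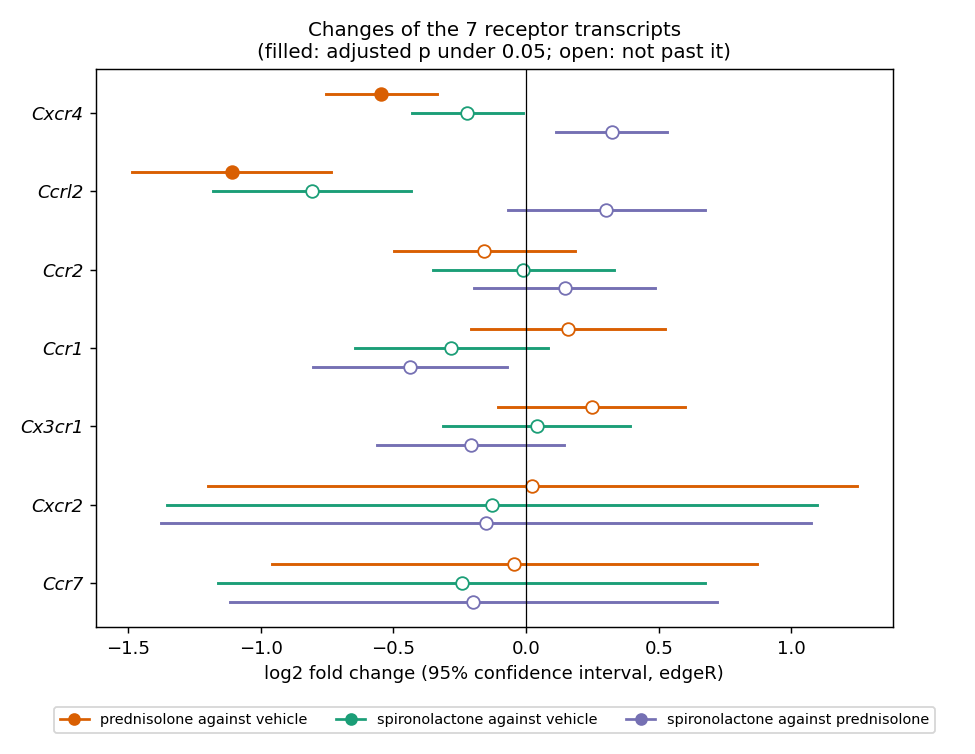
Log2 fold change with its 95% confidence interval (edgeR) for each receptor and comparison, with filled points where the adjusted *P* was under 0.05. Only *Ccrl2* and *Cxcr4* with prednisolone against vehicle are filled, and the intervals of *Cxcr2* and *Ccr7* are the widest.

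The next question was whether the drugs differed from each other. By edgeR and by limma-voom, none of the 7 receptors passed the test of spironolactone against prednisolone, in which 5.17% of all genes were called, 2.38% higher and 2.79% lower with spironolactone. At an unadjusted *P* under 0.05 there were 2 of the 7, against 22.5% of all genes. These were *Cxcr4*, at 0.32 ± 0.10 on the log2 scale (95% CI 0.11 to 0.53; adjusted *P* = 0.0721), and *Ccr1*, at −0.44 ± 0.17 (95% CI −0.80 to −0.07; adjusted *P* = 0.146). For both genes the libraries of the 2 drugs did not overlap. *Cxcr4* was higher in all 3 spironolactone libraries, and *Ccr1* was lower in all of them. Such separation was seen for 15.1% of all genes in the higher direction and for 15.2% in the lower. DESeq2 on all 9 libraries called *Cxcr4* (adjusted *P* = 0.0303). DESeq2 fitted to the 2 groups called both genes (adjusted *P* = 0.0269 for *Cxcr4* and 0.00285 for *Ccr1*), and edgeR fitted to the 2 groups called *Ccr1* (adjusted *P* = 0.0238). Without vehicle replicate 1, edgeR also called *Cxcr4* and *Ccr1* (adjusted *P* = 0.0369 and 0.019), and without spironolactone replicate 1 it called *Cxcr4* (adjusted *P* = 0.034). These settings called 10.1% (DESeq2 on all 9 libraries), 13% and 9.98% (DESeq2 and edgeR on the 2 groups), 11.1% (without vehicle replicate 1), and 4.55% (without spironolactone replicate 1) of the genes they tested. For *Ccrl2*, which was below vehicle in every library of either drug, the direct difference was 0.30 ± 0.17 (95% CI −0.07 to 0.67; adjusted *P* = 0.323), and the libraries of the drugs overlapped.

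Levels between receptors were compared in TPM, which scales counts to the summed exon length of each gene and to library size. That length covers all annotated exons, not the transcript present in these cells. It was 6765 bases for *Ccr2*, 2618 for *Ccrl2*, and 1822 for *Cxcr4*, and the order below depends on it. With vehicle, *Cxcr4* was highest at 825 ± 64.0 TPM and *Ccrl2* was next at 764 ± 45.1 TPM, and these overlapped. *Ccr2* (385 ± 77.0 TPM) and *Ccr1* (359 ± 72.3 TPM) followed and also overlapped, and *Cx3cr1* at 218 ± 59.3 TPM overlapped with *Ccr1*. *Cxcr2* (79.1 ± 46.5 TPM) and *Ccr7* (23.6 ± 8.13 TPM) were each apart from the gene above. On the CPM scale, which does not correct for length, *Ccr2* ranked 1st and *Cxcr4* ranked 3rd with vehicle, in place of 3rd and 1st.

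The order of the means was the same with spironolactone. With spironolactone *Cxcr4* had 700.2 ± 51.3 TPM and stood apart from *Ccrl2* at 433 ± 33.8 TPM, which overlapped with *Ccr2* at 381 ± 51.9 TPM. With prednisolone *Cxcr4* had 599.7 ± 43.9 TPM, and *Ccr1* at 428 ± 20.5 TPM had a higher mean than *Ccrl2* at 375 ± 99.3 TPM, with overlap. The 7 receptors together held 80.9% to 86.5% of the summed TPM of 25 chemokine and chemerin receptor genes with a length. *Ccrl2* alone held 24.6% of that sum with vehicle, 17.0% with spironolactone, and 14.5% with prednisolone, while *Ccr1* held 11.6%, 11.5%, and 16.5%. A share also rises when other members of the sum fall, as *Ccrl2* and *Cxcr4* did with prednisolone. *Ccr1* itself had 359 TPM with vehicle and 428 TPM with prednisolone, a change that was not called (adjusted *P* = 0.742, edgeR).

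**Figure D3:**
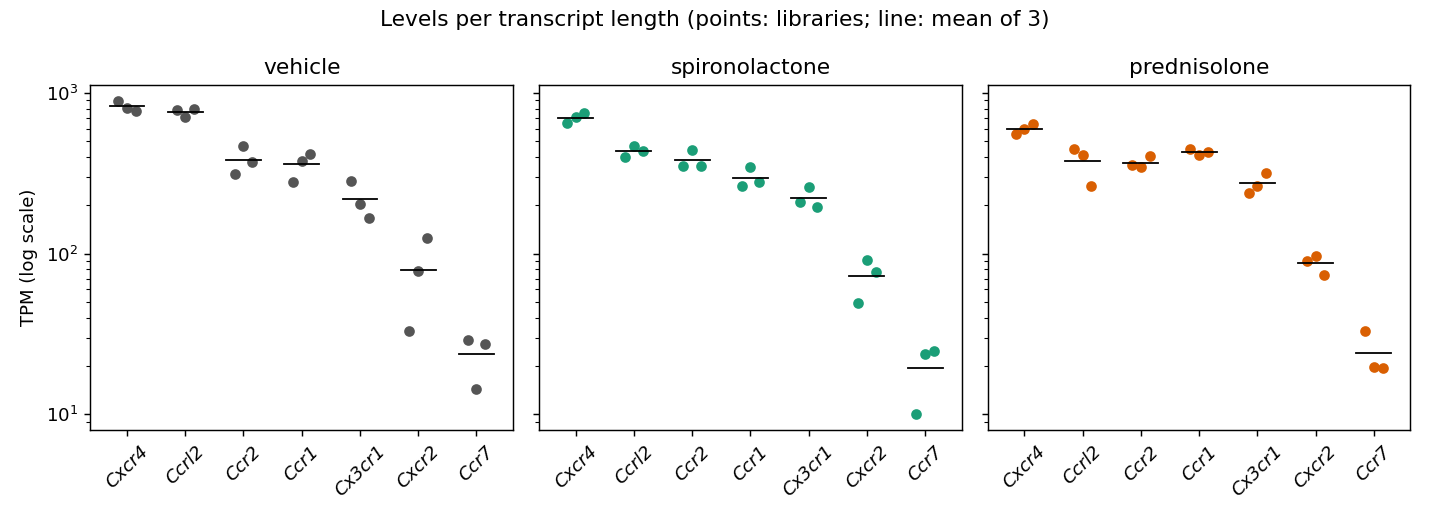
Level in TPM (per summed exon length, log axis) of the 7 receptors in each group, with points for the 3 libraries and a line for their mean. *Cxcr4* leads in every group, and *Ccrl2* is near *Cxcr4* only with vehicle.

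The receptors also differed in how steady they were within a group. The coefficient of variation, averaged over the 3 groups, was 6.78% for *Cxcr4*, which put it at percentile 16.6 of all genes tested, where the median was 13.7%. *Ccrl2*, *Ccr2*, *Ccr1*, and *Cx3cr1* had at most 17.3%. *Cxcr2* had 35.6% and *Ccr7* 37.4%, at percentiles 81.8 and 83.3.

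For 4 of the receptors, marker genes of cells known to carry them were set beside them, by library. For *Cxcr2*, the 11 neutrophil markers summed to 780.4, 1024, and 4896 CPM with vehicle, 1396, 1563, and 3653 CPM with spironolactone, and 1011, 987, and 789 CPM with prednisolone. Vehicle replicate 3 had both the highest sum and the highest *Cxcr2*, and vehicle replicate 1 had the lowest of both. Between them the orders differed. Spironolactone replicate 3, with a sum of 3653 CPM, had 55.3 CPM of *Cxcr2*, and prednisolone replicate 2, with 987 CPM, had 62.0 CPM. The markers did not move as one. *Ngp*, a granule protein gene of immature neutrophils, ranged from 0.267 CPM in prednisolone replicate 3 to 1369 CPM in vehicle replicate 3, while *Csf3r*, the G-CSF receptor, stayed between 405.8 and 692 CPM. None of the 11 passed the test against vehicle with either drug, although their median log2 difference with prednisolone was −1.61 and 9 of them were below 0. Without vehicle replicate 3 the median was −0.076 and 6 were below 0, so that this library carried the median. The part of neutrophil content in the *Cxcr2* levels was not tested.

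For *Ccr2*, the 8 classical monocyte markers summed to 1213, 2818, and 2652 CPM with vehicle, 1609, 1787, and 1810 CPM with spironolactone, and 3296, 2410, and 2947 CPM with prednisolone. Vehicle replicate 1 was lowest of the 9 in both *Ccr2* and the marker sum, and vehicle replicate 2 was highest in *Ccr2*. Prednisolone replicate 1 had the highest sum, at 3296 CPM, with 525 CPM of *Ccr2*. Spironolactone replicate 2 had a sum of 1787 CPM with 689 CPM of *Ccr2*. With prednisolone 4 of these markers were above 0 and 4 below in log2 difference, with *Chil3* at 0.93 ± 0.38 and *Ly6c2* at −0.84 ± 0.47. With spironolactone all 8 were below 0, with a median of −0.21. For *Cx3cr1*, the 11 markers of F4/80hi macrophages summed to 5077 to 6063 CPM with vehicle, 5805 to 6878 CPM with spironolactone, and 4578 to 5586 CPM with prednisolone. The complement genes *C1qa*, *C1qb*, and *C1qc* made up most of this sum. With prednisolone *C1qb* was at −0.30 ± 0.13 and *Lyve1* at 1.44 ± 0.34 (adjusted *P* = 0.299 and 0.0816). For *Ccr7*, the 10 markers of mature dendritic cells summed to 512 to 626, 415 to 479, and 435 to 509.8 CPM. No marker of these 3 lists was at 0 in all libraries of a group, and none passed the test against vehicle with either drug. A further list of 10 dendritic cell markers summed to 850 to 882, 785 to 1041, and 938 to 1085 CPM. Against vehicle, 9 of the 10 were above 0 with spironolactone (median 0.42, none called) and 6 with prednisolone (median 0.19). Of the 10, *Itgax* was called higher with prednisolone than with vehicle, where 1% of all genes were called higher. Between the drugs, *Itgax* was called lower and *Batf3* and *Irf8* higher with spironolactone. Between the drugs, where 5.17% of all genes were called, *F13a1* was lower with spironolactone among the classical monocyte markers (−0.88 ± 0.14; adjusted *P* = 0.00358), also with any 1 library left out. Among the F4/80hi markers, *Lyve1* and *Cd163* were lower and *C1qb* and *C1qc* higher with spironolactone (adjusted *P* of 0.0154 to 0.0448). All 4 calls were lost without spironolactone replicate 3 or prednisolone replicate 1 or 2, those other than *C1qb* without vehicle replicate 2, those other than *Cd163* without spironolactone replicate 2, and *Lyve1* and *Cd163* also without spironolactone replicate 1 or prednisolone replicate 3 (adjusted *P* of 0.0525 to 0.17). The 7 nonclassical monocyte markers, also set beside *Cx3cr1*, summed to 1087 to 1228 CPM with vehicle, 879.8 to 1099.6 CPM with spironolactone, and 940.4 to 1199.55 CPM with prednisolone. Of these, *Spn* rose with prednisolone by 0.65 ± 0.14 on the log2 scale (adjusted *P* = 0.0286), a call lost without vehicle replicate 2 or prednisolone replicate 2 or 3 (adjusted *P* of 0.107 to 0.119). With prednisolone 2 of the 7 were above 0, and the median was −0.20. Between the drugs *Ace* was called higher and *Spn* lower with spironolactone, and both calls were lost without spironolactone replicate 1 or 2 or prednisolone replicate 2 or 3, and *Ace* also without spironolactone replicate 3 or prednisolone replicate 1 (adjusted *P* of 0.0534 to 0.135). The part of these cells in the receptor levels was not tested.

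**Figure D4:**
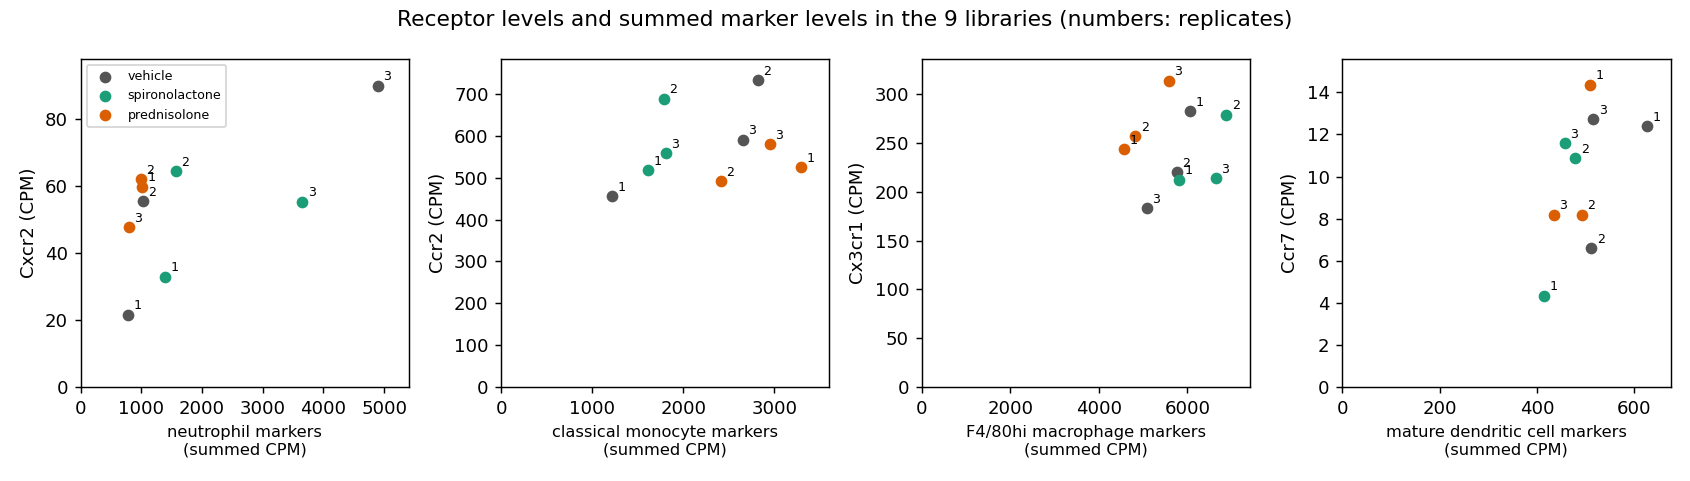
Receptor level in CPM (vertical) against the summed CPM of the markers of a cell type known to carry it (horizontal) in the 9 libraries, with replicates numbered and groups colored. Vehicle replicate 3 lies apart in neutrophil markers at 4896 CPM, and vehicle replicate 1 is lowest for *Cxcr2* and *Ccr2*.

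*Ccr2* and *Cx3cr1* are often read as a pair, since the first is high on classical and the second on nonclassical monocytes. The ratio of their CPM was 1.61, 3.33, and 3.23 with vehicle, 2.44, 2.47, and 2.62 with spironolactone, and 2.16, 1.91, and 1.85 with prednisolone. The spironolactone libraries were all above the prednisolone libraries, but the vehicle libraries extended beyond both groups on either side. This ratio was not tested.

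The genes most like a receptor over the 9 libraries were found among 10214 genes, by Pearson's correlation of log2 CPM and as a description only, since the points share groups and pools. *Ccrl2* was most like *Ifrd1* (*r* = 0.983), *Tgif1* (*r* = 0.982), and *Ccnl1* (*r* = 0.974). *Ifrd1* had mean levels of 252, 137, and 119 CPM with vehicle, spironolactone, and prednisolone, which is the order seen for *Ccrl2*. *Cxcr4* was most like *H1f4* (*r* = 0.959), *Clk1* (*r* = 0.938), and *Sys1* (*r* = 0.933), and *Clk1* had 138, 119, and 97.3 CPM. *Cxcr2* was most like *Stfa2l1* (*r* = 0.967), a stefin gene, followed by *Prelid3b* and *Ppp1r8*. The nearest were *Nadk* for *Ccr1* (*r* = 0.989), *Sdhaf2* for *Ccr2* (*r* = 0.961), and *2310057M21Rik* for *Ccr7* (*r* = 0.888).

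Several of the receptor genes are neighbors on chromosome 9. Within 500 kb of the *Ccr2* start lie 8 receptor genes that span 441 kb, with *Ccr1*, *Ccr2*, and *Ccr3* among them. Only *Ccr3* of these 8 was called with prednisolone, where 1.76% of all genes were called, and none with spironolactone (0.0181%). *Ccr3*, the eotaxin receptor of eosinophils, had 14.8, 12.3, and 10.5 CPM with vehicle, 11.3, 18.3, and 18.3 CPM with spironolactone, and 4.53, 5.20, and 6.68 CPM with prednisolone. It fell with prednisolone by 1.20 ± 0.21 on the log2 scale (adjusted *P* = 0.0128), with adjusted *P* values of 0.0615 and 0.0998 without prednisolone replicate 1 or 2. *Ccrl2* lies on the same chromosome but 13.02 Mb away. Its nearest protein-coding neighbors were *Lrrfip2*, 28.6 kb away, at −0.02 ± 0.09 with prednisolone (adjusted *P* = 0.954), and *Ltf*, a neutrophil granule gene 11.7 kb away. *Ltf* had 23.0, 5.71, and 422.5 CPM with vehicle and 2.005, 7.61, and 1.66 CPM with prednisolone, a difference of −5.32 ± 1.92 (adjusted *P* = 0.286) that was −1.94 ± 1.17 without vehicle replicate 3.

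Of 19 other chemokine and chemerin receptors listed, 13 had enough counts to test. With prednisolone *Ccr3* was the 1 called, against 1.76% of all genes, and none rose. With spironolactone none was called by edgeR, limma-voom, or DESeq2. At an unadjusted *P* under 0.05 there were 1 of the 13 with prednisolone (14.2% of all genes), 2 with spironolactone (9.29%), and 6 between the drugs (22.5%). Against prednisolone, spironolactone had *Ccr3* higher by 1.54 ± 0.21 (adjusted *P* = 0.00205) and no other call by edgeR or limma-voom, while DESeq2 also called *Xcr1*. The median log2 difference of the 13 was −0.0031 with prednisolone and 0.26 with spironolactone. *Cmklr1*, the signaling chemerin receptor, had 241, 215, and 216 CPM, with log2 differences of −0.17 ± 0.14 for spironolactone and −0.16 ± 0.14 for prednisolone (adjusted *P* = 0.778 and 0.673). *Cxcr3*, *Xcr1*, and *Ackr3* had group means between 2.13 and 5.85 CPM, and *Cxcr1* reached 1.09 CPM with prednisolone. None of these 4 passed in any comparison with vehicle.

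Ligands of the 7 receptors were followed as a list of 19 genes, of which 18 were tested. With prednisolone 2 fell by edgeR, against 0.758% of all genes, none rose, and 16 did not pass, with a median log2 difference of −0.39. DESeq2 called 3, with *Ccl5* added. With spironolactone edgeR and limma-voom called none of the 18 and DESeq2 called 1, *Ccl3*. The median with spironolactone was −0.21. At an unadjusted *P* under 0.05 edgeR gave 6 of the 18 with prednisolone (14.2% of all genes), 4 with spironolactone (9.29%), and 6 between the drugs (22.5%). *Ccl8* was listed under CCR2, but which receptor it binds in mouse was not tested. It had 8.70, 10.7, and 11.2 CPM with vehicle, 12.3, 12.0, and 10.9 CPM with spironolactone, and 4.10, 3.48, and 4.42 CPM with prednisolone. Its prednisolone libraries were all below the others, and it fell by 1.35 ± 0.16 on the log2 scale (adjusted *P* = 0.00141). *Ccl3*, a CCR1 ligand, fell by 0.97 ± 0.16 (adjusted *P* = 0.00966). Against prednisolone, spironolactone had higher *Ccl8* (1.55 ± 0.16; adjusted *P* = 0.000344) and *Ccl5* (1.20 ± 0.26; adjusted *P* = 0.0221), and the *Ccl5* call was lost without spironolactone replicate 2 or 3 or prednisolone replicate 1 or 2, at adjusted *P* values up to 0.0884. DESeq2 also called *Ccl9* between the drugs. *Ccl5* is also made by T and NK cells, and the cells used here were sorted as CD45+CD11b+. In the same comparison 3 of 10 tested lymphocyte markers, all near the floor, were called higher, against 2.38% of all genes tested. The part of these cells in *Ccl5* was not tested.

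The receptors differed in whether the libraries held transcripts of a ligand. Markers of other cells were also present in these libraries, and *Cxcl12* was itself a fibro-adipogenic marker. Which cells made the ligand transcripts was not tested. The most abundant ligand with vehicle was *Ccl6* at 3524 TPM for CCR1, *Ccl2* at 1872 TPM for CCR2, and *Cxcl2* at 2572 TPM for CXCR2. For CXCR4 it was *Mif*, a cytokine that also binds this receptor, at 552 TPM, whereas *Cxcl12* had 7.63 TPM. For the remaining receptors it was near the floor, with *Ccl21a* at 1.88 TPM for CCR7, *Cx3cl1* at 0.876 TPM for CX3CR1, and *Rarres2*, the chemerin gene, at 0.846 TPM for CCRL2.

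**Figure D5:**
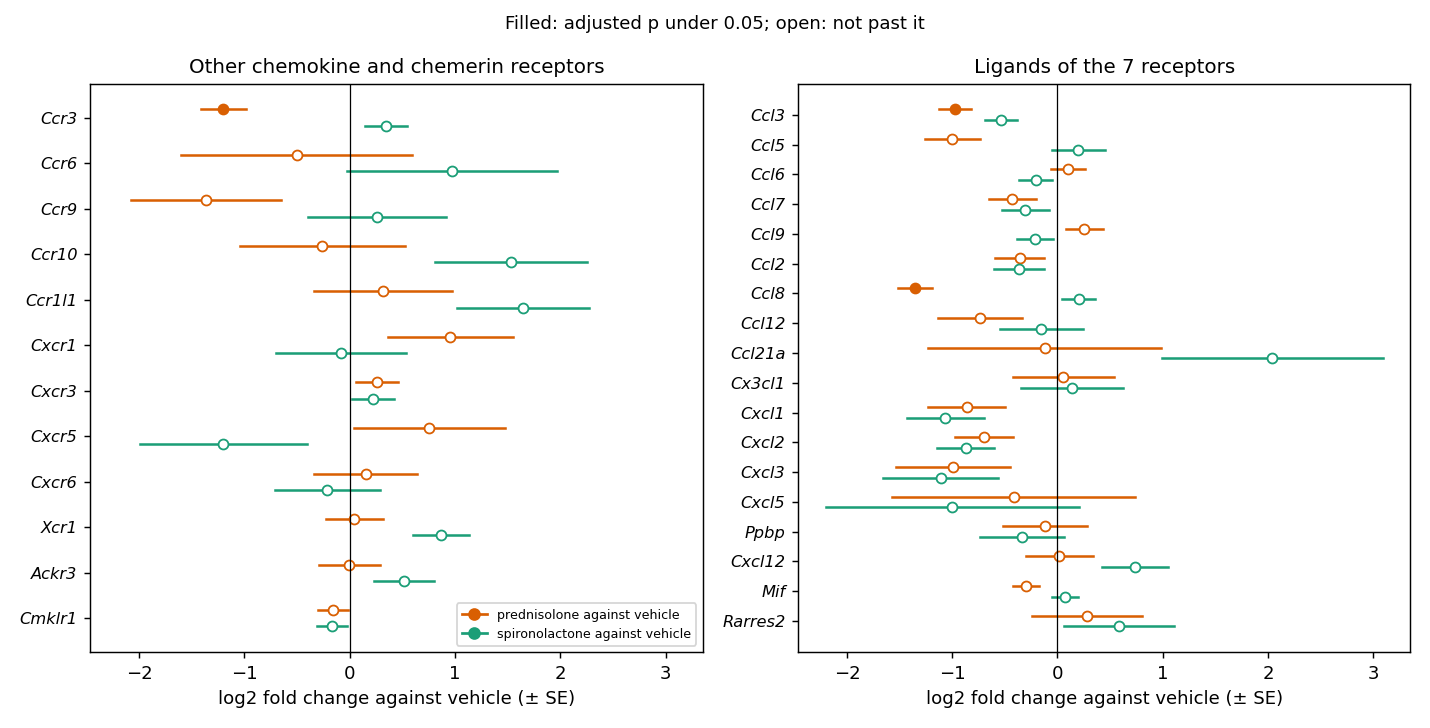
Log2 fold change against vehicle (± SE) of the other receptors and of the ligands that could be tested and are reported here, by drug, with filled points where the adjusted *P* was under 0.05. *Ccr3*, *Ccl3*, and *Ccl8* with prednisolone are filled, and no point is filled with spironolactone.

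Inside the cell, chemokine receptors other than the atypical ones act through Gαi proteins, are switched off by GRK kinases and arrestins, and are damped by RGS proteins that speed the G protein cycle. All 31 genes listed for this machinery were tested. With prednisolone *Rgs1* and *Rgs2* fell, against 0.758% of all genes, none rose, and 29 did not pass. With spironolactone none of the 31 passed by edgeR, limma-voom, or DESeq2. Those at an unadjusted *P* under 0.05 numbered 6 with prednisolone (14.2% of all genes), 2 with spironolactone (9.29%), and 8 between the drugs (22.5%). *Rgs1*, a regulator of chemokine receptor signaling in leukocytes, had 581, 595, and 725 CPM with vehicle, 517, 327, and 485 CPM with spironolactone, and 342, 352, and 254 CPM with prednisolone. It fell by 50.2% with prednisolone (adjusted *P* = 0.0152; log2 SE 0.18), a call lost without prednisolone replicate 2 or 3 (adjusted *P* = 0.0533 and 0.0517). *Rgs2* had 332, 360.2, and 316 CPM with vehicle, 346, 323, and 306 CPM with spironolactone, and 224, 229, and 215 CPM with prednisolone, a fall of 0.59 ± 0.09 (adjusted *P* = 0.00455). Between the drugs, *Rgs2* was higher with spironolactone by 0.55 ± 0.09 (adjusted *P* = 0.00478), and DESeq2 also called *Gng2* and *Rgs1*. *Grk5*, a receptor kinase, was lower with spironolactone than with prednisolone by 0.61 ± 0.13 on the log2 scale (adjusted *P* = 0.0167), and lost the call without spironolactone replicate 2 or prednisolone replicate 1 or 2 (adjusted *P* of 0.0612 to 0.0744). The median log2 difference of the 31 genes was −0.03 with prednisolone and −0.05 with spironolactone.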

How the data were processed

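RNA of sorted myeloid cells was sequenced in 9 libraries of 3 groups, assigned by the treatment labels. The authors made the deposited counts per gene, whole numbers without normalization, by alignment to mm39 and counting, and the submitters' processing notes name HISAT2 2.2.1, HTSeq 0.11.3, and DESeq2 1.32.0. Strand setting and annotation release are not given in the sources used here. Closing lines that name no gene (17.2% to 21.8%) were left out. Deposited columns of the authors' own DESeq2 comparisons (fold changes and *P* values) were not used.

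The quasi-likelihood F test of edgeR 4.0.16 (R 4.3.3; TMM, robust=TRUE, all 9 libraries in one fit, two-sided) was applied to the 16618 genes that passed filterByExpr (minimum count 10, minimum total 15), with Benjamini-Hochberg adjustment over all of them and a threshold of 0.05. Levels are TMM-normalized CPM. TPM used summed exon lengths from GENCODE for 40303 symbols, which carry at least 91% of the counts. Likeness used genes of at least 5 CPM and log2 CPM with a prior count of 2, and the 3 most alike per receptor were named where given. Named genes were the 7 receptors, any called gene of the fixed receptor, ligand, and signaling lists, other receptors reaching 1 CPM, and the most abundant ligand of each receptor. Marker genes named singly were chosen after their values were seen. The members and lists were chosen with earlier results of these data known. Libraries of a group were separate pools of mice, and no pair of libraries agreed within sampling noise (chi-square per degree of freedom of at least 18). Some named items of these lists are not reported here. Scripts were tested on simulated data. Alternatives were DESeq2 1.42.0, limma-voom (limma 3.58.1), fits of 2 groups, other normalizations and filters, a replicate block, and leaving out each library.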

Additional observations from a re-analysis of the deposited data

How the results depend on the processing

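*Ccrl2* and *Cxcr4* with prednisolone were called under all 10 alternatives (adjusted *P* 3.37e-19 to 0.028 and 4.76e-06 to 0.0201). Leaving out 1 library at a time, the receptors called with prednisolone were 1 to 2, with *Cxcr4* lost without prednisolone replicate 1 or 2. With spironolactone 1 receptor, *Ccrl2*, was called by DESeq2 on all 9 libraries, by DESeq2 on the 2 groups, and without a low-count filter, and 0 to 1 when a library was left out (*Ccrl2* without prednisolone replicate 3, adjusted *P* = 0.0224; 0.0224 to 0.409 over the 9). Between the drugs, 1 was called by DESeq2 on all 9 libraries (*Cxcr4*), 1 by edgeR on the 2 groups (*Ccr1*), 2 by DESeq2 on the 2 groups, 1 without a filter (*Ccr1*), and 0 to 2 with a library left out. The cause was not tested. The 10 calls named among other receptors, ligands, and signaling genes held under all 10 alternatives. All genes called numbered 69 to 1019 with prednisolone, 0 to 528 with spironolactone, and 232 to 2045 between the drugs over all settings.

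No call of the 7 receptors was turned in direction. Of the differences that were not called, limma-voom turned *Ccr2* (0.0051) and *Cxcr2* (0.045) with spironolactone. Leaving out a library gave, with prednisolone, −0.026 to 0.31 for *Ccr1*, −0.32 to 0.025 for *Ccr2*, −0.37 to 0.11 for *Ccr7*, and −0.36 to 0.56 for *Cxcr2*. With spironolactone it gave −0.17 to 0.17 for *Ccr2*, −0.49 to 0.088 for *Ccr7*, −0.10 to 0.22 for *Cx3cr1*, and −0.52 to 0.40 for *Cxcr2*, and between the drugs −0.43 to 0.13 for *Ccr7* and −0.36 to 0.083 for *Cxcr2*. By TPM in place of CPM, *Ccr2* ranked 3 and *Cxcr4* 1 with vehicle.

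Replicate numbers did not pair libraries in all groups (same-number *r* −0.17 to 0.29, above 0.1 in 2 of 9 pairs). Those 2 pairs were both vehicle with spironolactone, at 0.293 for replicate 1 and 0.294 for replicate 3, while replicate 2 gave 0.0983. Pairs of different number between these groups gave −0.346 to 0.148. With a replicate block, 2, 0, and 0 receptors were called, as without it, and all genes called were 336, 8, and 1082 in place of 293, 3, and 859. Between the drugs, *Lyve1*, *Cd163*, and *C1qc* lost their calls under the block (adjusted *P* = 0.0813, 0.0518, and 0.0511), and *C1qc* by library totals alone (0.0595). Depth was least for *Ccr7*, at 137 counts in its lowest library. Groups of 3 pools leave wide intervals for *Cxcr2* and *Ccr7*.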
